A study of Bos taurus with 16 samples.

Results

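The sites described here were the autosomal cytosine positions of an RRBS table of bovine endometrium that lay at the ends of the chromosomes. A site was called distal when its start was within 2 Mb of the highest start on its autosome, and proximal, which in cattle is the centromeric end, when its start was below 2 Mb. By this rule, which used positions and no methylation value, 39850 sites were distal and 7122 were proximal, together 46972 of the 199395 sites of the table, and 142064 autosomal sites lay in the interior. The samples were endometrial cytobrush cells of multiparous Holstein-Friesian cows, taken 4 to 8 h after artificial insemination (AI) at a heat between days 50 and 64 postpartum. Cows of CON_P and CON_noP received the control diet and cows of MET_P and MET_noP received the diet with daily rumen-protected methionine (RPM) from day 12 postpartum, and P and noP mark the AI that resulted in pregnancy or in no pregnancy. Each group had 4 libraries, named here by the library numbers of the table, and the study took DNA from more cytobrush samples than there are libraries. How the cows were divided among the libraries was not given in the sources used here, so the spread between libraries may not be that between single cows.

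Cattle autosomes are acrocentric, which means that the centromere, surrounded by satellite repeats, lies close to one end, and the long arm runs to the telomere at the other. Subtelomeric DNA of mammals is known to be rich in GC, CpG dinucleotides and genes, whereas pericentromeric repeats are known as DNA that is usually methylated in somatic cells. RRBS reads the bisulfite-converted ends of short fragments made by MspI, an enzyme that cuts at CCGG, so it samples CpG-dense DNA most deeply. Methylation at CpG-dense promoters is usually low and within gene bodies usually high. The unit of the table was the percent of methylated calls at a position. Only positions with a valid value above zero in every library were in it. A site count below is therefore a count of such positions and not of all CpGs of the genome. This filter removes unmethylated positions, so levels and shares of lowly methylated sites below also hold for such positions only.

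The distal ends held far more sites than any other part of the autosomes. They carried 687 sites per Mb, the proximal ends 123 and the interior 59.9, which gave 11.5 times the interior density at the distal ends, 2.05 times at the proximal ends, and a ratio of 5.60 between both ends. Together, the 2 Mb distal ends made up 2.33% of the autosomal length and held 21.1% of the autosomal sites, whereas the proximal ends, of the same length, held 3.77%. Because a position is counted once for the whole table, these densities have no replicates and were not tested.

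Single autosomes mostly followed this order. The distal end was denser than the proximal end on 26 of the 29 autosomes, with chromosomes 14, 24 and 27 as the exceptions, and denser than the interior on 28, with chromosome 27 as the exception. The distal density was more than 5 times that of the interior on 21 autosomes. For the proximal ends the order was mixed, with 15 autosomes on which they were denser than the interior. The most sites at a distal end were on chromosomes 17 (3450 sites), 11 (2521 sites) and 25 (2546 sites), and the fewest on chromosomes 27 (124 sites), 28 (154 sites) and 1 (157 sites). At the proximal ends, chromosome 25 had 1942 sites, chromosome 14 had 1451 and chromosome 24 had 610, whereas chromosome 17, the fullest at its distal end, had 10, chromosome 6 had 11 and chromosome 26 had 23. The sites of chromosomes 25 and 14 made up 47.6% of all proximal sites, so these chromosomes carry much of the weight in any value over the proximal sites, while the 2 fullest distal ends made up 15.05% of the distal sites. No distal end but 8 proximal ends had fewer than 50 sites. Over the 29 autosomes, distal and interior density were weakly related (Spearman correlation 0.17), and so were distal density and chromosome length (Spearman correlation -0.013), whereas interior density was higher on shorter chromosomes (Spearman correlation -0.64). These are descriptions over chromosomes of the same libraries, with no test.

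**Figure D1:**
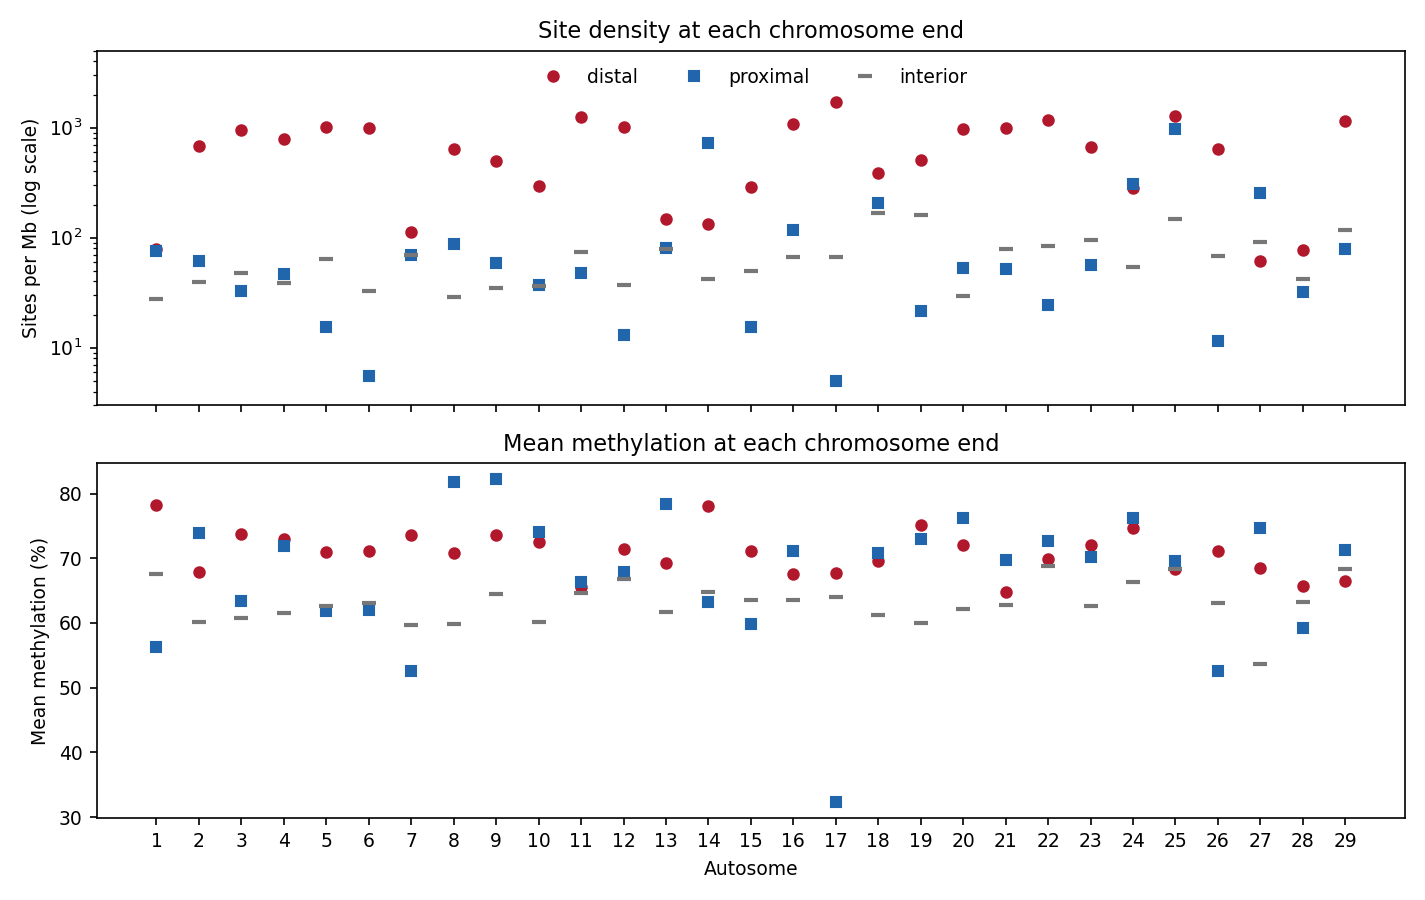
Sites per Mb (upper panel, log axis) and mean methylation in percent over the 16 libraries (lower panel) at the distal end, the proximal end and in the interior of each autosome. In the upper panel, the distal points lie above the proximal ones on 26 of 29 autosomes. In the lower panel, the proximal points spread from 32.4% to 82.2% and the distal points from 64.8% to 78.3%.

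With the distance from the end, density and methylation level followed different courses. Distal density was 523 sites per Mb in the outermost 0.25 Mb, highest between 0.5 and 1 Mb at 839, and then fell with distance to 422 between 2 and 3 Mb, 146 between 5 and 10 Mb and 74.4 between 10 and 20 Mb. Proximal density was 143 sites per Mb in the first 0.25 Mb and 48.7 between 10 and 20 Mb. The mean methylation level at the distal end stayed between 68.2% and 71.7% out to 5 Mb and was 61.8% between 10 and 20 Mb. At the proximal end it was 77.8% in the first 0.25 Mb (76.3% to 79.2% over the libraries) and 68.7% in the next 0.25 Mb (66.7% to 70.1%), so that the libraries' ranges did not overlap. At the 2 Mb limit itself, the 1780 distal sites within 100 kb inside it averaged 68.5% and the 1411 within 100 kb outside it 75.0%, while the proximal sites averaged 68.9% inside (308 sites) and 69.5% outside (326 sites).

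**Figure D2:**
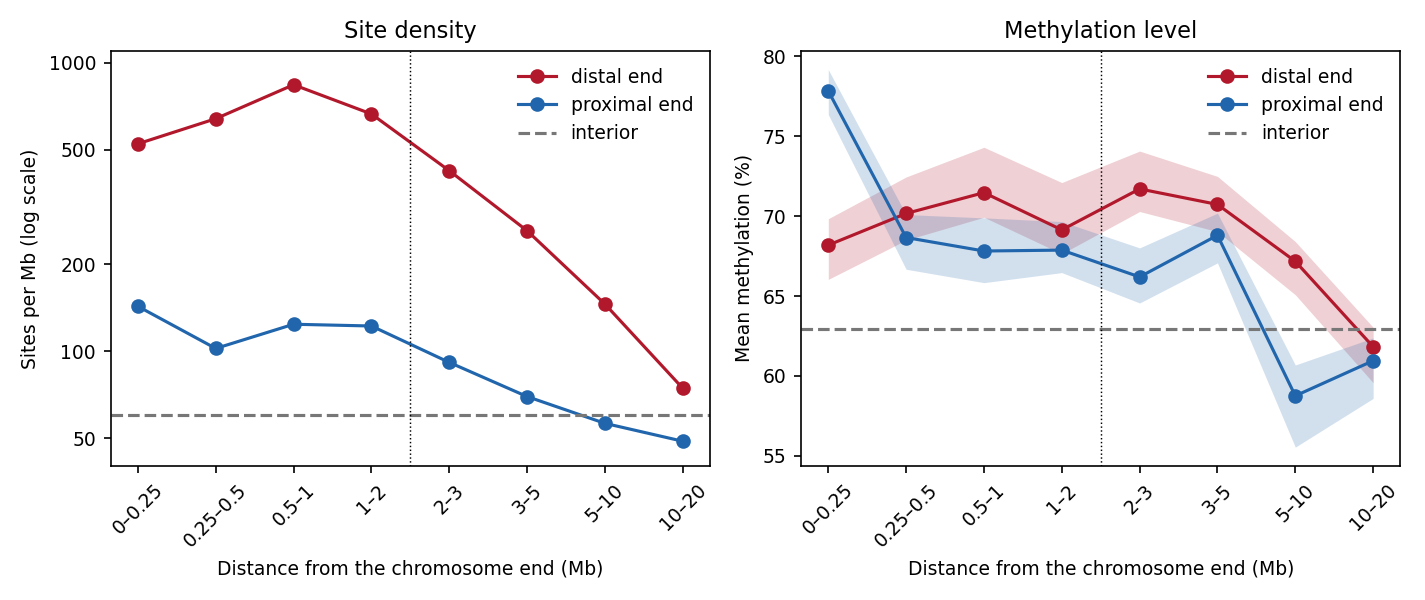
Sites per Mb (left, log axis) and mean methylation in percent (right) by distance from the distal and the proximal end, pooled over 29 autosomes. Points are means over 16 libraries, shaded bands run from the lowest to the highest library, the dashed lines give the interior (59.9 sites per Mb and 62.9%), and the dotted line marks 2 Mb. Distal density peaks at 839 sites per Mb between 0.5 and 1 Mb, and the proximal level is highest, 77.8%, in the outermost 0.25 Mb.

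The sites at the ends were packed more tightly and were less often in an annotated gene. A 1 kb window with any site held 5.12 sites at the distal ends, 4.08 at the proximal ends and 3.48 in the interior, and 12.3%, 7.34% and 5.34% of these windows held at least 10 sites. A gene was given for 58.3% of distal sites, 58.4% of proximal sites and 66.6% of interior sites. In all, 755 genes had a site at a distal end and 321 at a proximal end.

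For each chromosome end, only its densest stretch of at most 300 bases was kept, and the densest of these are given here on ARS-UCD1.2. They were highly methylated and serve as examples of this packing. At the distal ends, 54 sites at chr20:70405788-70406084, with no gene in the table, averaged 94.8%. Next came 47 sites at chr18:63847363-63847662 in ZNF71, a zinc finger gene, with 86.4%, and 45 sites at chr5:119769561-119769846 in SBF1, a pseudophosphatase gene of the myotubularin family, with 97.1%. Within the ZNF71 stretch the group means were 84.9% ± 4.14 (SD, n = 4) in CON_P, 82.9% ± 4.75 in CON_noP, 89.2% ± 1.40 in MET_P, with 88.7% ± 2.54 in MET_noP, and no test was made of this stretch alone. The densest proximal stretches lay at the very start of their chromosomes: 62 sites at chr9:44340-44635 without a gene (85.2%), 45 sites at chr25:9201-9496 under RF00001, the name of a ribosomal RNA family (78.6%), and 33 sites at chr29:21876-22009 without a gene (84.9%). No genome of this build was at hand, so exons, introns, UTRs and repeats at these positions were not analysed here.

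Both ends were more methylated than the interior in every library. The mean over distal sites was 69.9% (SD 1.23, n = 16), over proximal sites 69.4% (SD 0.990) and over interior sites 62.9%. Within libraries, the distal mean exceeded the interior mean by 6.97 ± 0.597 percentage points (SD, n = 16; 16 of 16 libraries, exact sign-flip permutation test, two-sided, p = 3.05e-05, adjusted p = 4.58e-05), and the proximal mean exceeded it by 6.48 ± 0.291 (16 of 16 libraries, same exact test, adjusted p = 4.58e-05). This p of 3.05e-05 is the smallest that 16 libraries allow. All libraries read the same positions, so the sign-flip p-values measure how alike the libraries were, not the spread over chromosomes or positions. Against only its own adjoining 2 Mb, an alternative added after the data were seen, the distal end was lower by 1.12 ± 0.228 percentage points (SD, n = 16; 69.9% against 71.0%, 0 of 16 libraries higher) and the proximal end was higher by 1.14 ± 0.233 (69.4% against 68.3%, 16 of 16 libraries higher), with an exact sign-flip permutation p of 3.05e-05 for both. The mean was higher at the distal end than in the interior on 28 autosomes, chromosome 29 being the exception, and higher at the proximal end than in the interior on 20.

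Among the positions that passed the filter of the table, fewer sites were lowly methylated at the ends than in the interior as a whole. Sites with a mean under 20% made up 9.76% of distal, 12.5% of proximal and 19.8% of interior sites. Per library, this share was 8.11% to 14.7% at distal sites, 11.8% to 16.7% at proximal sites and 18.5% to 24.04% in the interior, so that neither end overlapped the interior. Sites at 80% or more made up 53.9%, 55.4% and 48.6%. Once sites under 20% were left out, the means were 76.1% (distal), 77.7% (proximal) and 75.7% (interior), which lay close together. At the distal ends, sites in a gene averaged 73.2% and sites without a gene 65.2%, and in the interior 66.0% and 56.7%, whereas at the proximal ends both were nearly alike at 70.1% and 68.4%. At sites of 20% to 80%, the libraries within a group had a median SD of 11.1 percentage points at distal, 10.5 at proximal and 10.9 at interior sites.

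The 2 ends themselves differed little in level. The distal mean was above the proximal mean in 15 of 16 libraries, by 0.488 ± 0.391 percentage points (SD, n = 16; exact sign-flip permutation test, adjusted p = 9.16e-05), the exception being library 19 of MET_P. The sign of this difference rested on the weighting, since it was -1.14 without chromosome 14, -0.325 with ends of 1 Mb, -0.708 for the median and -3.14 for sites without a gene. By chromosome, 14 of 29 autosomes had the higher mean at the distal end. The distal ends with the highest means were those of chromosomes 1 (78.3%, 157 sites), 14 (78.1%, 264 sites) and 19 (75.1%, 1021 sites), and those with the lowest were chromosomes 21 (64.8%, 1969 sites), 11 (65.6%) and 28 (65.7%). Proximal ends were more spread, from chromosomes 17 (32.4%, 10 sites), 26 (52.6%, 23 sites) and 7 (52.6%, 140 sites) to chromosomes 13 (78.4%), 8 (81.9%) and 9 (82.2%). The SD over the 29 chromosome means was 3.44 percentage points for distal and 10.3 for proximal ends, which also have fewer sites.

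The first question of the design, whether levels at the ends differed with the pregnancy outcome and the diet, was put to 1 mean per library. In CON_P, the distal means were 72.6%, 71.0%, 69.0% and 68.4%, and in CON_noP 69.6%, 68.4%, 69.9% and 68.7%. The corresponding values were 70.6%, 69.3%, 69.3% and 70.02% in MET_P, with 70.5%, 68.5%, 71.6% and 70.8% in MET_noP. The groups overlapped in each comparison, and library 14 of CON_P (72.6%) was the highest of all. CON_P (70.3% ± 1.92, SD, n = 4) exceeded CON_noP (69.1% ± 0.727) by 1.13 percentage points (p = 0.343, exact permutation test), or 0.345 without library 14. MET_P (69.8% ± 0.619) was 0.549 below MET_noP (70.3% ± 1.31; exact permutation test, p = 0.543). Between diets, MET_P differed from CON_P by -0.460 (exact permutation test, p = 0.657), which turned to 0.322 without library 14, and MET_noP from CON_noP by 1.22 (exact permutation test, p = 0.171). With 4 libraries against 4, no exact p can fall under 0.0286, and a p above the threshold does not show that the groups were alike.

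Proximal levels overlapped between groups as well. The means were 69.5% ± 1.43 in CON_P, 68.7% ± 0.758 in CON_noP, 69.6% ± 0.449 in MET_P, with 69.8% ± 1.07 in MET_noP (SD, n = 4 each). By the exact permutation test, CON_P minus CON_noP was 0.752 percentage points (p = 0.371), MET_P minus MET_noP -0.211 (p = 0.771), MET_P minus CON_P 0.140 (p = 0.886) and MET_noP minus CON_noP 1.10 (p = 0.171). Adjusted over the 15 comparisons of distal means, proximal means and their difference, no adjusted p was under 0.429.

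The gap between both ends gave the lowest unadjusted p of the 3 interactions of diet and outcome, though not the largest difference. In percentage points it was 0.796 ± 0.568 for CON_P, 0.422 ± 0.185 for CON_noP, 0.197 ± 0.271 for MET_P and 0.536 ± 0.294 for MET_noP (SD, n = 4 each). It was thus higher with pregnancy on the control diet, by 0.374 (exact permutation test, p = 0.2), and lower with pregnancy on RPM, by 0.339 (exact permutation test, p = 0.143). These effects of outcome differed between diets by 0.713 (outcomes permuted exactly inside each diet, p = 0.0453), which did not hold after adjustment (exact permutation, adjusted p = 0.429). Without library 14, whose gap of 1.63 was the widest, the difference of the effects was 0.434 (exact permutation, p = 0.0886). The gap between distal and interior sites was a contrast added after the data were seen. It was 6.38 ± 0.275 in MET_P, 7.01 ± 0.547 in MET_noP, 7.36 ± 0.771 in CON_P and 7.12 ± 0.325 in CON_noP. MET_P minus MET_noP was -0.633 and MET_P minus CON_P -0.986, each with an exact permutation p of 0.0571, and both share the MET_P libraries. Their adjusted p of 0.143 was taken over only the 5 comparisons of this contrast. In the family of 15, the same p for MET_P vs CON_P in distal minus proximal was adjusted to 0.429. By exact permutation, CON_P minus CON_noP was 0.249 (p = 0.629), MET_noP minus CON_noP -0.105 (p = 0.714) and the interaction 0.882 (p = 0.112).

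**Figure D3:**
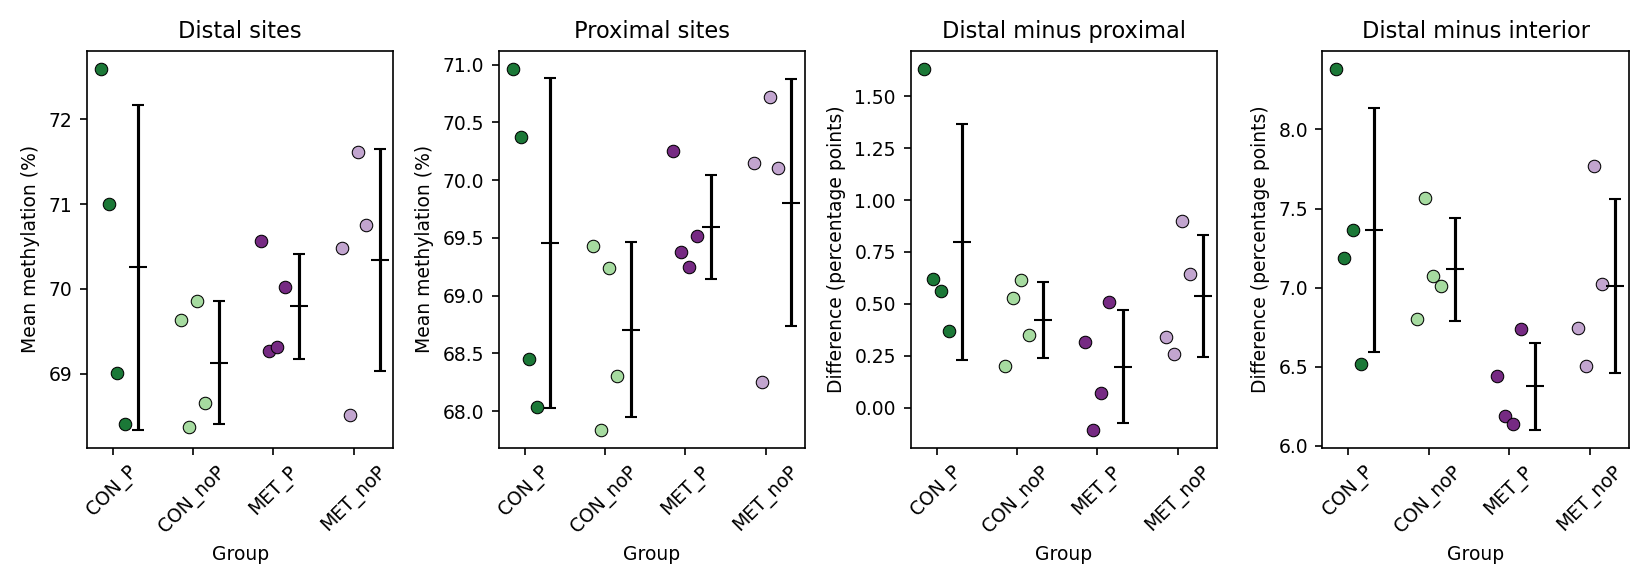
Mean methylation of distal and proximal sites in percent, and the distal mean minus the proximal or the interior mean in percentage points, by group. Each point is a library, and the bars beside the points give the mean and SD of 4 libraries; the vertical axes do not start at 0 and differ between panels. The groups overlap in each panel, and library 14 of CON_P is the highest point in the first panel at 72.6% and in the third at 1.63 percentage points.

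Distal ends of different chromosomes moved together within a library. In library 14 of CON_P, all 29 distal ends were above their own mean over the 16 libraries, by a median of 2.50 percentage points and at most 6.56, and in library 29 of MET_noP it was again 29 of 29, by a median of 0.844. In library 28 of CON_noP, 0 of 29 were above, with a median of -1.15. In 13 of the 16 libraries, at least 25 or at most 4 of the distal ends were above their mean. At the proximal ends this held for 0 libraries, and 5 to 22 ends were above. Proximal ends held a median of 107 sites and distal ends 1343, and the part of these site numbers in the contrast was not tested. Over the 16 libraries, the distal mean followed the interior mean (Pearson r = 0.875, permutation p = 6e-05; Spearman correlation = 0.926, permutation p = 2e-05; r = 0.870 without the 2 farthest libraries) and the proximal mean followed the interior mean (r = 0.960; Spearman correlation = 0.956; permutation p = 1e-05 for both, the smallest that 100000 resamples give). These relations, 3 in all with the one between both ends, kept p-values of 6e-05 or less in the permutation test after adjustment, and the 3 means of a library share its reads, its bisulfite conversion and its depth. The study gives more raw reads per library for MET_P than for the other groups, but the depth at the sites is not in the table, and its part in these values was not tested. The 29 ends of a library are therefore no replicates of a group.

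**Figure D4:**
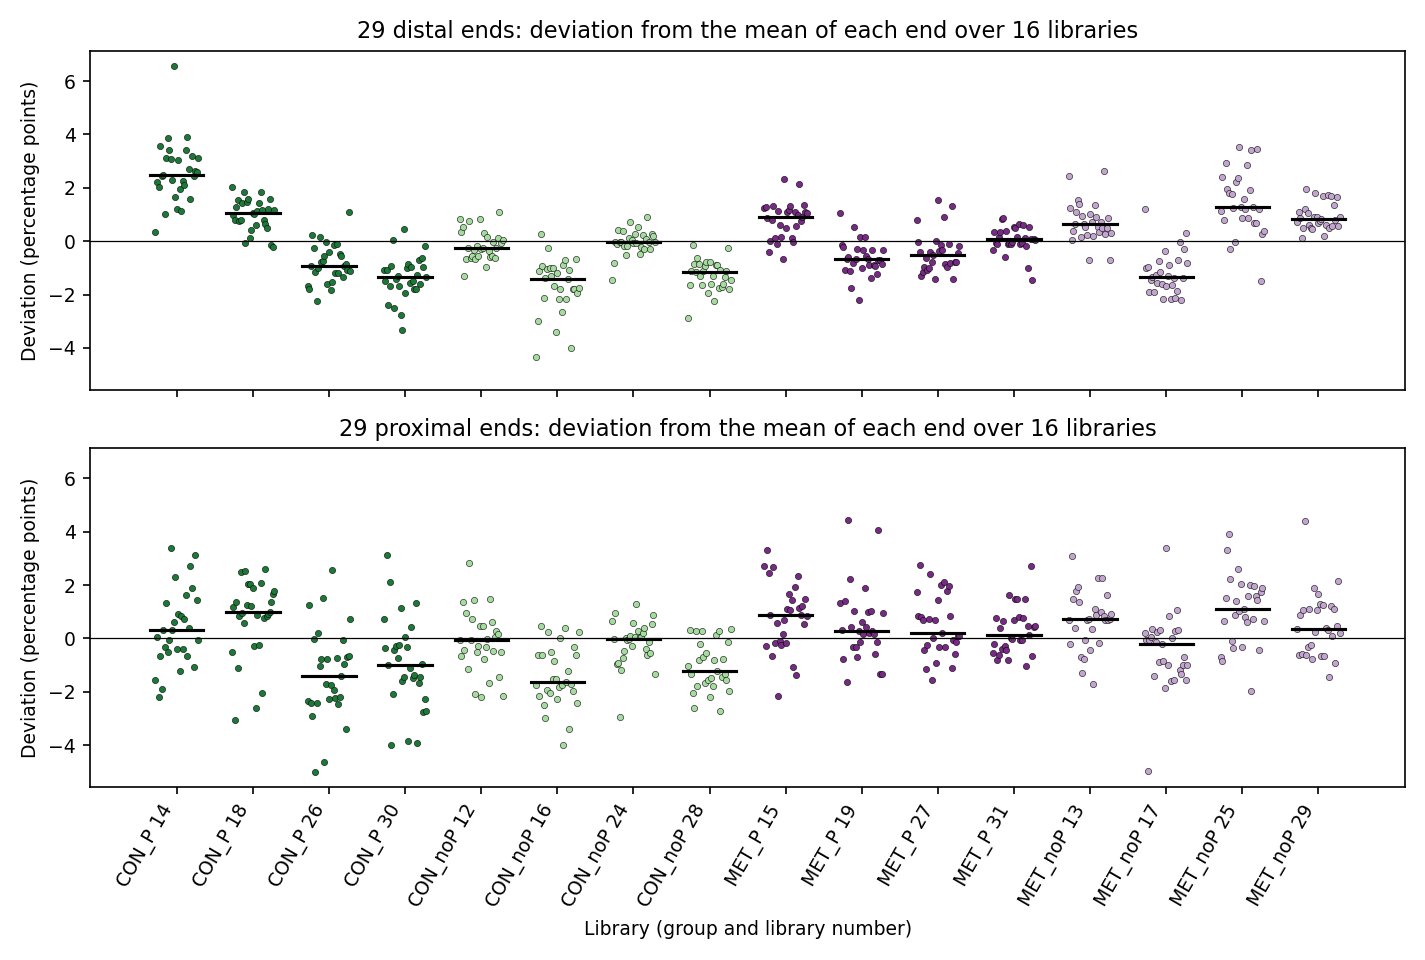
Deviation of each chromosome end, in percentage points, from the mean of that end over 16 libraries, for 29 distal ends (upper panel) and 29 proximal ends (lower panel). Each point is a chromosome end in 1 library, the black bars are medians, and libraries are sorted by group. In library 14 of CON_P and library 29 of MET_noP all distal points lie above 0, and in library 28 of CON_noP all lie below, while the proximal points of each library lie on both sides.

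When each chromosome end was taken as 1 window of 2 Mb, the direction of the distal ends was nearly uniform in 3 of the 4 comparisons. CON_P had the higher mean at 28 of 29 distal ends (75.9% of all 1087 windows) and at 21 proximal ends. MET_P had the higher mean than MET_noP at 3 distal ends, those of chromosomes 10, 14 and 15 (55.9% of all windows), and at 16 proximal ends. Against CON_P, MET_P was higher at 9 distal ends (60.6% of all windows) and 21 proximal ends, and MET_noP was higher than CON_noP at 29 distal ends (79.3% of all windows) and 26 proximal ends. The median difference over the distal ends was 1.24, -0.582, -0.404 and 1.05 percentage points in this order, beside 0.659, 0.144, 0.321 and 0.954 over all windows. As the ends of a library moved together, such counts describe few libraries.

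**Figure D5:**
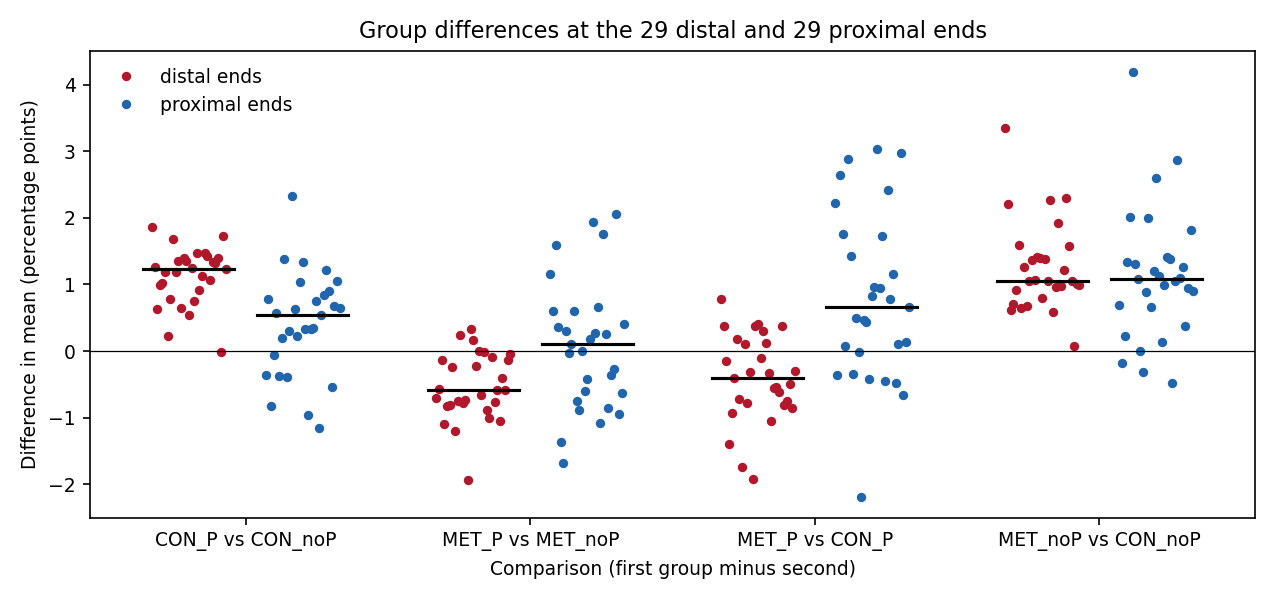
Difference in mean methylation between groups, in percentage points, at each of 29 distal and 29 proximal ends in 4 comparisons, first group minus second. Points are chromosome ends and black bars medians. In CON_P vs CON_noP 28 and in MET_noP vs CON_noP 29 of the distal ends lie above 0, and in MET_P vs MET_noP 3 do, whereas proximal ends spread on both sides in each comparison.

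With limma, no chromosome end had an adjusted p under 0.05 in any comparison. At an unadjusted p under 0.05 there were 0, 0, 0 and 1 distal ends and 1, 2, 4 and 4 proximal ends for the outcome under the control diet, the outcome under RPM, the diet in P and the diet in noP, in this order, while 3.04%, 5.24%, 8.46% and 7.73% of all windows were below it. Without library 17 of MET_noP, 12 distal ends were below it between MET_noP and CON_noP (21.3% of all windows) and 4 between MET_P and MET_noP (11.2%). The single distal end with all libraries was that of chromosome 1 with 157 sites, 76.3% ± 2.20 in CON_noP and 79.7% ± 0.745 in MET_noP (SD, n = 4; limma, adjusted p = 0.548). Of the proximal ends, chromosome 6 with 11 sites showed the widest difference, 4.19 ± 1.12 percentage points (SE) between MET_noP and CON_noP (limma, adjusted p = 0.548), followed by chromosome 17 with 10 sites, 3.04 ± 1.28 between MET_P and CON_P (limma, adjusted p = 0.538). Both are among the proximal ends with the fewest sites.

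At single sites, no distal or proximal site had a limma adjusted p under 0.05. At an unadjusted p under 0.05, CON_P and CON_noP differed at 1730 distal sites (4.34%) and 267 proximal sites (3.75%), beside 3.93% of all sites, and 1131 of the distal sites were higher in CON_P (2.84%, beside 2.53% of all sites) and 599 lower (1.503%, beside 1.4%). MET_P and MET_noP differed at 2184 distal (5.48%) and 411 proximal sites (5.77%), beside 5.12%, with 977 of the distal sites higher in MET_P (2.45%, beside 2.57% of all sites) and 1207 lower (3.03%, beside 2.55%). For MET_P and CON_P the counts were 2391 of 39850 distal and 436 proximal sites (6.12%), beside 5.83%, with 1013 of the distal sites higher in MET_P (2.54%, beside 3.06% of all sites) and 1378 lower (3.46%, beside 2.77%). MET_noP and CON_noP differed at 2111 (5.30%) and 364 sites (5.11%), beside 5.13%, with 1327 of the distal sites higher in MET_noP (3.33%, beside 3.36% of all sites) and 784 lower (1.97%, beside 1.77%). Whatever the p, the mean was higher in the first group at 56.6%, 47.8%, 48.5% and 56.6% of the distal sites, beside 55.4%, 51.8%, 53.6% and 57.3% of all sites. Counted in either direction, the shares of distal and proximal sites were within 1 percentage point of those of the whole table. Among the distal sites under this p, 65.4%, 44.7%, 42.4% and 62.9% were higher in the first group, and among all sites 64.3%, 50.3%, 52.5% and 65.5%. When all libraries were shifted to a common median of M, the distal shares became 57.7%, 38.2%, 28.7% and 46.8%, and those of all sites 55.7%, 42.9%, 36.7% and 48.6%, so that the majority turned for MET_noP and CON_noP at distal sites as in the whole table. The proximal shares went from 70.4%, 43.1%, 51.1% and 69.0% to 58.1%, 37.2%, 36.4% and 53.5%.

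The sites of lowest p had values at the ceiling of the scale. In each comparison the 2 distal sites and the proximal site of lowest limma p with groups that did not overlap were chosen, which gave 11 different sites, and at 10 of them every library of a group was at 100%. Groups did not overlap at 1.99%, 2.90%, 3.09% and 2.75% of all sites in the 4 comparisons. The lowest adjusted p was shared by a distal site in TMEM121 and a proximal site in ARHGAP39. The site in TMEM121, a gene of a transmembrane protein, lay at 69784459 on chromosome 21. MET_noP was at 100% in 4 of 4 libraries and CON_noP was at 81.8% to 88.6% with a mean of 84.7% ± 2.86 (SD, n = 4; limma, adjusted p = 0.0739). Of the 20 other sites within 100 bases, 8 differed in the same direction, and their mean difference was 0.555 percentage points. At the proximal site of ARHGAP39 at 398999 on chromosome 14, MET_noP was at 100% in each library and CON_noP at 81.5% ± 5.13 (limma, adjusted p = 0.0739), and 7 of 8 neighbours differed in the same direction, by a mean of 3.40. The widest difference was at 1474330 on chromosome 16 in ATP2B4, a plasma membrane calcium pump. CON_P had 97.9%, 100%, 100% and 100% and MET_P 62.7%, 75.9%, 66.7% and 76.8%, a difference of -28.9 percentage points (limma, adjusted p = 0.208), while the MET_noP libraries ran from 46.7% to 98.1% and 2 of 7 neighbours differed in the same direction.

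Other sites of this choice differed by less. At a site of INPP5A on chromosome 26, CON_P was at 100% in all libraries, CON_noP at 87.9% ± 4.65 and MET_P at 89.8% ± 4.59, so that it was chosen in both comparisons with CON_P. Its limma adjusted p was 0.181 against CON_noP and 0.208 against MET_P. Of its 8 neighbours within 100 bases, 1 differed in the same direction against CON_noP and 6 did against MET_P. The sites in ANAPC1, a subunit gene of the anaphase-promoting complex, DGCR8, a gene of microRNA processing, MAPK8IP3, a scaffold of JNK signalling, and NCAPG2, a condensin subunit gene, differed by 4.51, 7.82, -7.18 and -6.07 percentage points. Their limma adjusted p was 0.209, 0.119, 0.119 and 0.152, and 4 of 5, 3 of 4, 1 of 2 and 1 of 4 neighbours differed in the same direction. Sites without a gene on chromosomes 2, 20 and 7 differed by 10.5, 8.17 and -9.18 (limma, adjusted p = 0.181, 0.119 and 0.208). On chromosome 2, 4 of 5 neighbours differed in the same direction and on chromosome 7 0 of 1, while the site on chromosome 20 had no neighbour. How many reads stand behind a value of 100% is unknown.

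The genes with the most distal sites were highly methylated in most cases. PTPRN2, a receptor-type phosphatase-like protein of secretory vesicles, had 784 sites between 118734202 and 119256705 on chromosome 4, with a mean of 72.6% (70.01% to 77.4% over the libraries), and 399 of its sites were at 80% or more. It was followed by GMDS, an enzyme of GDP-fucose synthesis (410 sites, 85.1%), MAD1L1 of the spindle checkpoint (394 sites, 79.2%), the unnamed ENSBTAG00000051431 (295 sites, 68.8%), the collagen gene COL5A1 (255 sites, 80.03%), INPP5A, an inositol phosphatase (253 sites, 79.2%), and EEFSEC, the elongation factor for selenocysteine (253 sites, 71.2%). Next were ARHGEF10L (241 sites, 74.9%), KIF1A, a kinesin motor (221 sites, 83.3%), and RXRA, the retinoid X receptor alpha (214 sites, 61.7%). ENSBTAG00000050193 (212 sites) had the lowest mean of these genes, 49.1%, with 90 sites under 20%, and IQSEC1, an Arf exchange factor, had 197 of its 283 sites in the distal end (63.0%). These 12 genes held 9.36% of the distal sites.

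Their group differences were small and followed the library means. In CON_P vs CON_noP, all 12 had the higher mean in CON_P (59.2% of the 8719 genes tested), in MET_P vs MET_noP 2 of 12 in MET_P (55.7% of all genes), in MET_P vs CON_P 2 of 12 in MET_P (60.1%) and in MET_noP vs CON_noP 12 of 12 in MET_noP (63.1%). None of the 12 had an unadjusted limma p under 0.05 in any comparison. PTPRN2, for example, was at 73.5% ± 3.03 in CON_P, 72.5% ± 1.04 in CON_noP, 71.6% ± 0.681 in MET_P, with 72.9% ± 2.22 in MET_noP (SD, n = 4 each). COL5A1 was at 81.2% ± 1.98, 79.3% ± 0.799, 79.7% ± 0.560 and 79.9% ± 2.03 in the same order, and RXRA at 62.4% ± 2.39, 60.5% ± 1.62, 62.1% ± 1.962 and 61.6% ± 1.26.

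At the proximal ends, the gene with the most sites was ADGRB1, an adhesion G protein-coupled receptor, with 160 sites on chromosome 14 and a mean of 61.3%. It ranged from 56.0% to 69.4% over the libraries, with 63.4% ± 4.90 in CON_P, 61.3% ± 2.51 in CON_noP, 58.9% ± 1.12 in MET_P, with 61.7% ± 4.07 in MET_noP (SD, n = 4 each). NFATC1, a transcription factor activated by calcineurin (121 sites, 82.996%), CACNA1H, a T-type calcium channel (111 sites, 63.1%), VAC14, a scaffold of phosphoinositide synthesis (106 sites, 84.5%), and PLEC, the cytoskeletal linker plectin (84 sites, 80.1%), followed. IFT140 of intraflagellar transport had 78 sites (69.2%), TSNARE1, a SNARE domain gene, 74 of its 89 sites (88.4%), and ARHGEF10 73 sites with the highest mean of the 8, 90.5%. IFT140 varied most, with 65.7% ± 4.32 in CON_P, 66.9% ± 6.68 in CON_noP, 74.6% ± 3.27 in MET_P, with 69.7% ± 5.51 in MET_noP. MET_P minus CON_P in IFT140 was 8.89 percentage points (limma, unadjusted p = 0.00693, adjusted p = 0.616), and MET_noP minus CON_noP in ARHGEF10 was 2.50 (limma, unadjusted p = 0.0341), the only such values under 0.05 among these 8 genes.

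No gene at either end had a limma adjusted p under 0.05. At an unadjusted p under 0.05, 20, 31, 34 and 41 of 706 distal genes and 9, 12, 20 and 12 of 268 proximal genes differed in the 4 comparisons, beside 3.20%, 5.47%, 7.33% and 6.43% of all genes, which places the distal genes at 2.83%, 4.39%, 4.82% and 5.81% and the proximal genes at 3.36%, 4.48%, 7.46% and 4.48%. The distal counts changed when single libraries were left out, and so did the share of all genes. Without library 30 of CON_P, the distal counts rose to 52 for CON_P vs CON_noP (beside 7.36% of all genes) and 91 for MET_P vs CON_P (beside 13%). Without library 17 of MET_noP, they rose to 64 for MET_P vs MET_noP (beside 9.31%) and 76 for MET_noP vs CON_noP (beside 10.3%). RPL3L, a ribosomal protein gene of striated muscle at the proximal end of chromosome 25 with 5 sites, had the lowest p of the proximal genes for the outcome under the control diet and for MET_P against CON_P. Its values were 71.9%, 73.1%, 75.4% and 73.3% in CON_P, 66.2%, 67.3%, 70.5% and 66.2% in CON_noP, 63.9%, 66.8%, 66.3% and 64.0% in MET_P, with 68.2%, 65.3%, 69.8% and 74.1% in MET_noP. CON_P did not overlap CON_noP or MET_P, with differences of 5.84 ± 1.41 (SE; limma, adjusted p = 0.999) for CON_P minus CON_noP and -8.17 ± 1.25 for MET_P minus CON_P (limma, adjusted p = 0.366).

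JPT2, a microtubule-associated homolog gene of the same chromosome end with 12 sites, was lowly methylated. It was at 22.7% ± 2.16 in CON_noP and 32.7% ± 4.60 in MET_noP (limma, adjusted p = 0.745), and at 24.4% ± 4.65 in CON_P and 37.7% ± 11.3 in MET_P. VOPP1 on chromosome 22 (6 sites) was at 82.3% ± 1.78 in MET_P and 75.2% ± 2.07 in MET_noP, a difference of 7.11 ± 1.43 (SE; limma, adjusted p = 0.660). Among distal genes, GPR25, an orphan receptor on chromosome 16 with 32 sites and a mean of 24.8%, was at 19.8% ± 1.90 in CON_noP and 28.99% ± 3.08 in MET_noP, a difference of 9.14 ± 1.78 (SE; limma, adjusted p = 0.730). ZNF274, a zinc finger gene on chromosome 18 with 14 sites, was at 68.7% ± 4.05 in CON_P and 78.5% ± 1.39 in MET_P (limma, adjusted p = 0.611). The other distal genes of lowest p were ENSBTAG00000052022 (10 sites) between CON_P (92.0% ± 2.41) and CON_noP (87.9% ± 1.29; limma, adjusted p = 0.999) and ENSBTAG00000006239 (15 sites) between MET_P (87.1% ± 2.78) and MET_noP (93.4% ± 1.75; limma, adjusted p = 0.758).

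Of the 10412 autosomal genes with a site, 10.3% had one at an end, and this share stands beside the counts of the gene lists. Of 18 genes of telomere maintenance, 13 had a site and 1 of them, TERT, the catalytic subunit of telomerase, lay at a distal end. Its 49 sites between 71146578 and 71161542 on chromosome 20 averaged 91.4%, with 43 of them at 80% or more and a range over the libraries of 90.4% to 92.3%. The group means of TERT were 92.1% ± 0.169 in CON_P, 90.9% ± 0.622 in CON_noP, 91.3% ± 0.798 in MET_P, with 91.1% ± 0.658 in MET_noP (SD, n = 4 each), and its limma p was 0.254 or higher in all comparisons. Of 23 genes of the methionine cycle and folate metabolism 13 had a site, of 20 genes of DNA methylation 10 and of 37 genes of endometrial function 30, but 0 of them had one at either end. Of 24 genes of innate immunity and cytokines, 9 had a site and 1, IRF7, the interferon regulatory factor of type I interferon induction, lay at the distal end of chromosome 29 with 4 sites at 8.47%.

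The table holds no expression, so the cell types in the cytobrush samples could not be checked by transcripts. Sites were present in 6 of 7 epithelial markers (mean 19.7%), 6 of 7 leukocyte markers (56.5%) and 3 of 5 stromal markers (55.8%). Only CD247, the zeta chain of the T cell receptor complex, lay at an end, with 8 sites at the proximal end of chromosome 3. It was at 92.3% ± 2.73 in MET_P and 83.04% ± 5.37 in MET_noP (SD, n = 4), with a limma unadjusted p = 0.00913 and adjusted p = 0.796. In CON_P it was at 86.1% ± 3.47 and in CON_noP at 88.7% ± 5.86. The share of T cells in a library was not measured, and its part in any value above was not tested.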

How the data were processed

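The values analysed were percent methylation at single cytosine positions, as deposited by the authors. RRBS libraries were made from MspI-digested DNA. Before deposit, reads were trimmed (Trim Galore) and mapped by Bismark to ARS-UCD1.2, and the authors merged the runs of a library with SAMtools and quantified positions in SeqMonk. Each position of the deposited table has a value above zero in all 16 libraries. The deposited percent values were not normalised between libraries. No read counts were used, so that depth at a site is unknown and no interval of a single percentage is given. The authors' logistic regression on counts could not be repeated.

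Columns were assigned to groups by the group names above them. Group differences in library means were tested by exact permutation, two-sided, with 35 splits of 8 libraries, zones within libraries by the exact sign-flip test, and the interaction by permuting the outcome within each diet, with Benjamini-Hochberg adjustment over the 15 group comparisons. The 5 comparisons of distal minus interior, added after the data were seen, were adjusted as a separate family. Sites were tested with limma 3.58.1 in R 4.3.3 on M = log2((percent + 1)/(100 - percent + 1)) over all 199395 sites, and windows of 2 Mb with at least 10 sites (1087) and genes with at least 2 sites (8719, all sites of the gene) on mean percent, at a threshold of 0.05. Replicates are libraries, and nothing in the labels gives a batch. Tested on simulated data of 4 against 4 libraries with 200 of 199395 sites changed, 0 changes of 20 percentage points passed the site test, 23 of 40 points and 144 of 60 points. The changed sites were drawn only from sites of low to moderate methylation and were only raised. These rates therefore do not describe highly methylated sites, which are most frequent at the ends.

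The members and gene lists were chosen with earlier results of these data known. The text names the 12 distal and 8 proximal genes with the most sites, the gene of lowest p at each end (5 or more sites) and the 3 sites of lowest p without overlap in each comparison, the 3 ends with the most sites and the highest and lowest mean, and list members at an end. The alternatives were the median, each chromosome end or 1 kb window counted once, ends of 1 or 5 Mb, merged strands, sites with or without a gene, sites of 10% to 90%, other transformations and models, and each library or autosome left out. Scripts ran in Python 3.11.15 (scipy 1.17.1, pandas 2.3.3, numpy 2.4.6, matplotlib 3.10.9).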

Additional observations from a re-analysis of the deposited data

Results flagged for a closer look

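In a group of 4 libraries, a value that lies far from the other three by Dixon's criterion is expected by chance in about 1 of 20 groups. The criterion was run in every group for the library means and gaps, the named genes and the named sites. Several such values are therefore expected by chance. At the distal sites of ARHGEF10L, the CON_noP library 12 had 74.4% and the others 73.2% to 73.3%, and at those of KIF1A the same library had 84.1% and the others 82.2% to 82.5%. At ENSBTAG00000052022, library 31 of MET_P had 89.9% and the others 94.97% to 95.1%. At GPR25, library 15 of MET_P had 31.5% and the others 24.5% to 24.8%.

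At single sites, the same applied to the DGCR8 site at 72987432 on chromosome 17, where library 12 of CON_noP had 70% and the other three 100%. It also applied to the ATP2B4 site at 1474330 on chromosome 16, where library 14 of CON_P had 97.9% and the other three 100%, and to the ARHGAP39 site at 398999 on chromosome 14, where library 28 of CON_noP had 73.9% and the others 82.9% to 84.6%. At the DGCR8 and ATP2B4 sites, the other libraries of the group were tied at 100%. Any lower value would have been flagged there, so the chance rate given above does not apply to them. Both the depth at the flagged sites and its part in these values are unknown.

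For the difference between distal and proximal sites, the effect of the outcome under the control diet minus that under RPM was 0.713 percentage points (outcomes permuted exactly inside each diet, p = 0.0453, adjusted p = 0.429). This did not hold after adjustment over the 15 group comparisons, and the cause was not tested.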

How the results depend on the processing

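Density ratios kept their order under every alternative run. Distal to interior density was 10.5 with ends of 1 Mb, 9.44 with 5 Mb, 7.80 by 1 kb windows and 10.9 without chromosome 17, proximal to interior 1.82, 1.94, 1.75 and 2.13 (1.58 without chromosome 25), and distal to proximal 5.76, 4.87, 4.46 and 5.12 (7.20 without chromosome 25). The distal end taken from the assembly was not run, as no genome of the build was at hand.

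The ends stayed above the interior in the alternatives run, except against the 2 Mb next to the ends. With these neighbours pooled over both ends, the differences were -0.606 (distal) and -1.09 (proximal), and with each end against its own neighbour, added after the data were seen, -1.12 and 1.14. With 1 library left out, distal minus interior was 6.87 to 7.02, proximal minus interior 6.44 to 6.51 and distal minus proximal 0.412 to 0.528 percentage points. Distal minus proximal reversed for the median (-0.708), ends of 1 Mb (-0.325), sites without a gene (-3.14), sites of 10% to 90% (-1.22) and without chromosome 14 (-1.14), and lost significance without chromosome 1 (0.169) or 7 (0.131).

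Of the group differences, the median reversed MET_P vs MET_noP at distal (0.317) and proximal sites (0.396), MET_P vs CON_P at distal sites (0.643), and MET_noP vs CON_noP (-0.474) in distal minus proximal. For proximal MET_P vs MET_noP, counting each end once gave 0.0819 and each 1 kb window once 0.00291. In distal minus proximal, MET_P vs MET_noP passed at 5 Mb (-0.431), MET_P vs CON_P passed by the median (-0.578), MET_noP vs CON_noP reversed at 1 Mb (-0.0360), and the interaction did not pass by the median (0.104), by ends (1.34), by 1 kb windows (0.682) or at 1 Mb (0.463). In distal minus interior, added after the data were seen, the median reversed CON_P vs CON_noP (-0.314), 1 kb windows reversed MET_noP vs CON_noP (0.187), and MET_P vs MET_noP passed by ends (-0.607). All of these p are unadjusted, and the cause was not tested.

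Without 1 library, CON_P vs CON_noP ran from 0.345 to 1.74 at distal sites, 0.249 to 1.23 at proximal sites, 0.0954 to 0.517 for distal minus proximal and -0.0912 to 0.530 for distal minus interior. MET_P vs MET_noP ran from -1.16 to -0.123, -0.729 to 0.0942, -0.443 to -0.217 and -0.800 to -0.380, and MET_P vs CON_P from -1.08 to 0.322, -0.334 to 0.642, -0.742 to -0.320 and -1.27 to -0.646. MET_noP vs CON_noP ran from 0.790 to 1.83, 0.797 to 1.62, -0.00776 to 0.206 and -0.358 to 0.0627, and the interaction from 0.894 to 2.29, 0.460 to 1.481, 0.434 to 0.856 and 0.542 to 1.16. The unadjusted exact p fell under 0.05 for distal MET_noP vs CON_noP without library 17, for MET_P vs CON_P in both gaps without library 30 and for the interaction in distal minus interior without library 30. The interaction in distal minus proximal no longer passed without any one of libraries 12, 14, 15, 16, 19, 25, 27, 28 or 29. The sign turned for MET_P vs CON_P without library 14 (distal) and without 15, 26 or 30 (proximal), for proximal MET_P vs MET_noP and MET_noP vs CON_noP in distal minus proximal without library 25, and in distal minus interior for CON_P vs CON_noP without library 14 and MET_noP vs CON_noP without 16 or 17.

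With an offset of 0.1 percentage point, limma gave an adjusted p under 0.05 at 46, 73, 60 and 50 of 39850 distal sites in the 4 comparisons. Proximal sites under it numbered 8, 8, 5 and 10 of 7122. Among all 199395 sites, distal and proximal ones included, the numbers were 227, 282, 277 and 225. At each of the distal and proximal sites so called, every library of a group was at 100%. With sites of 10% to 90%, which are fewer, 1 of 110548 sites passed in MET_P vs CON_P, a proximal one. Sites at an unadjusted limma p under 0.05 then numbered 836, 1135, 1429 and 1251 at distal ends (3.71%, 5.03%, 6.34% and 5.55%). At proximal ends they numbered 120, 232, 252 and 200 (3.12%, 6.03%, 6.55% and 5.2%), beside 3.23%, 4.96%, 6.41% and 5.56% of all such sites. Over all methylation levels and without 1 library, distal sites at this p numbered 1738 to 2764, 1977 to 3110, 1997 to 4128 and 1986 to 2855. Proximal sites numbered 253 to 421, 360 to 525, 352 to 720 and 344 to 441. The counts of CON_P vs CON_noP and MET_P vs CON_P were highest without library 30. CON_P vs CON_noP then had 6.94% of distal, 5.91% of proximal and 6.19% of all sites, and MET_P vs CON_P 10.4%, 10.1% and 9.61%. Without library 17, MET_P vs MET_noP had 7.8% of distal, 7.37% of proximal and 7.23% of all sites. Chromosome ends at this p numbered 0 to 1, 0 to 4, 0 to 2 and 1 to 12 distal and 0 to 1, 1 to 3, 0 to 3 and 2 to 7 proximal without 1 library. Genes numbered 10 to 52, 18 to 64, 20 to 91 and 24 to 76 distal and 8 to 20, 10 to 32, 12 to 35 and 7 to 31 proximal, the highest without library 30 (comparisons with CON_P) or 17 (those with MET_noP). The share of all genes, and without library 17 that of all windows, rose as well, as given above. With at least 5 sites a gene, which leaves fewer genes to test, 11 proximal genes were left in MET_P vs CON_P.

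No paired analysis was possible because the columns carry none of the labels' replicate numbers. Unknown depth, 4 libraries a group and proximal ends with few sites limit these comparisons.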
